A study of Arabidopsis thaliana with 9 samples.

Results

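The 63 chloroplast-encoded genes described here are those for which the array's annotation pairs a probe set with exactly 1 gene of the plastid genome, out of 17481 named probe sets and 38408 probe sets in all. Each of the 63 genes had 1 such probe set, every one a protein-coding gene, and the function classes were read from the gene symbols. A further 19 probe sets are paired with several genes, at least 1 of them plastid, such as the copies of a gene in the inverted repeats, and these were not used. Plastid tRNA and rRNA genes were not analysed here.

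The samples were whole roots of 10-day-old Arabidopsis thaliana seedlings grown in continuous light, of the Wassilewskija background. All groups carried pCaMV35S:14-3-3κ:GFP, in which a constitutive promoter of cauliflower mosaic virus drives a 14-3-3κ protein fused to GFP, so no group without the transgene was compared. Seedlings sat in Kennedy Space Center fixation tubes (KFTs), which flood the plants with the fixative RNAlater when actuated. Last-actuated roots came from a tube triggered after a parabola flown by an F-104 jet, which followed a climb at 4 g lasting about 30 s and gave about 10 s of microgravity. First-actuated roots came from a tube triggered earlier in that flight, during low-altitude acceleration by the treatment protocol, although the design text places in-flight fixation after the return to level flight. Ground roots came from a tube held by a person and triggered during the flight. There were 3 arrays in each of the 3 groups, and the roots of a group all came from 1 tube, so a p-value here reflects only how pools of roots from a shared tube varied. The tube and the stage of flight cannot be told apart.

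The plastid genome is what remains of the genome of a cyanobacterial ancestor. It encodes core subunits of the photosystems, the cytochrome b6f complex, the ATP synthase and the NDH complex, the large subunit of Rubisco, part of the plastid ribosome and the core of a bacterial-type RNA polymerase. That plastid-encoded polymerase reads most photosynthesis genes, whereas a phage-type polymerase encoded in the nucleus reads several of the genes for the plastid polymerase itself. Most plastid genes lie in transcription units that are copied together and then cut, and root plastids carry the same genome as leaf chloroplasts although roots photosynthesise little.

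Values are the authors' log2 signals, for which the submitters' processing notes name RMA, one per probe set and array. The array medians lay between 3.27 and 3.35, and all 63 genes were above the median on each of the 9 arrays, with means over the arrays between 7.09 and 13.00. Probes differ in brightness for the same amount of RNA, so the values rank arrays for a gene and do not rank genes. Pairs of arrays correlated at 0.98 or above over all probe sets. Marker genes were looked up only among probe sets paired by name with exactly 1 gene, and 20927 unnamed probe sets were not searched. A listed gene that was not found may still be on the array. Of 21 listed root genes, 2 were found, the root hair expansins EXPA7 and EXPA18, and both were above the array medians. EXPA7 changed by -0.59 ± 0.15 (SE) in first-actuated against ground roots and by 0.58 ± 0.15 in last-actuated against first-actuated roots. Neither change was called at an adjusted p of 0.05 by limma. For EXPA18 the same changes were 0.00 ± 0.15 and 0.04 ± 0.15. Of 8 stomatal and other shoot cell markers, 3 were found by name (FAMA, SPCH and MUTE), each below the array medians.

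**Figure D1:**
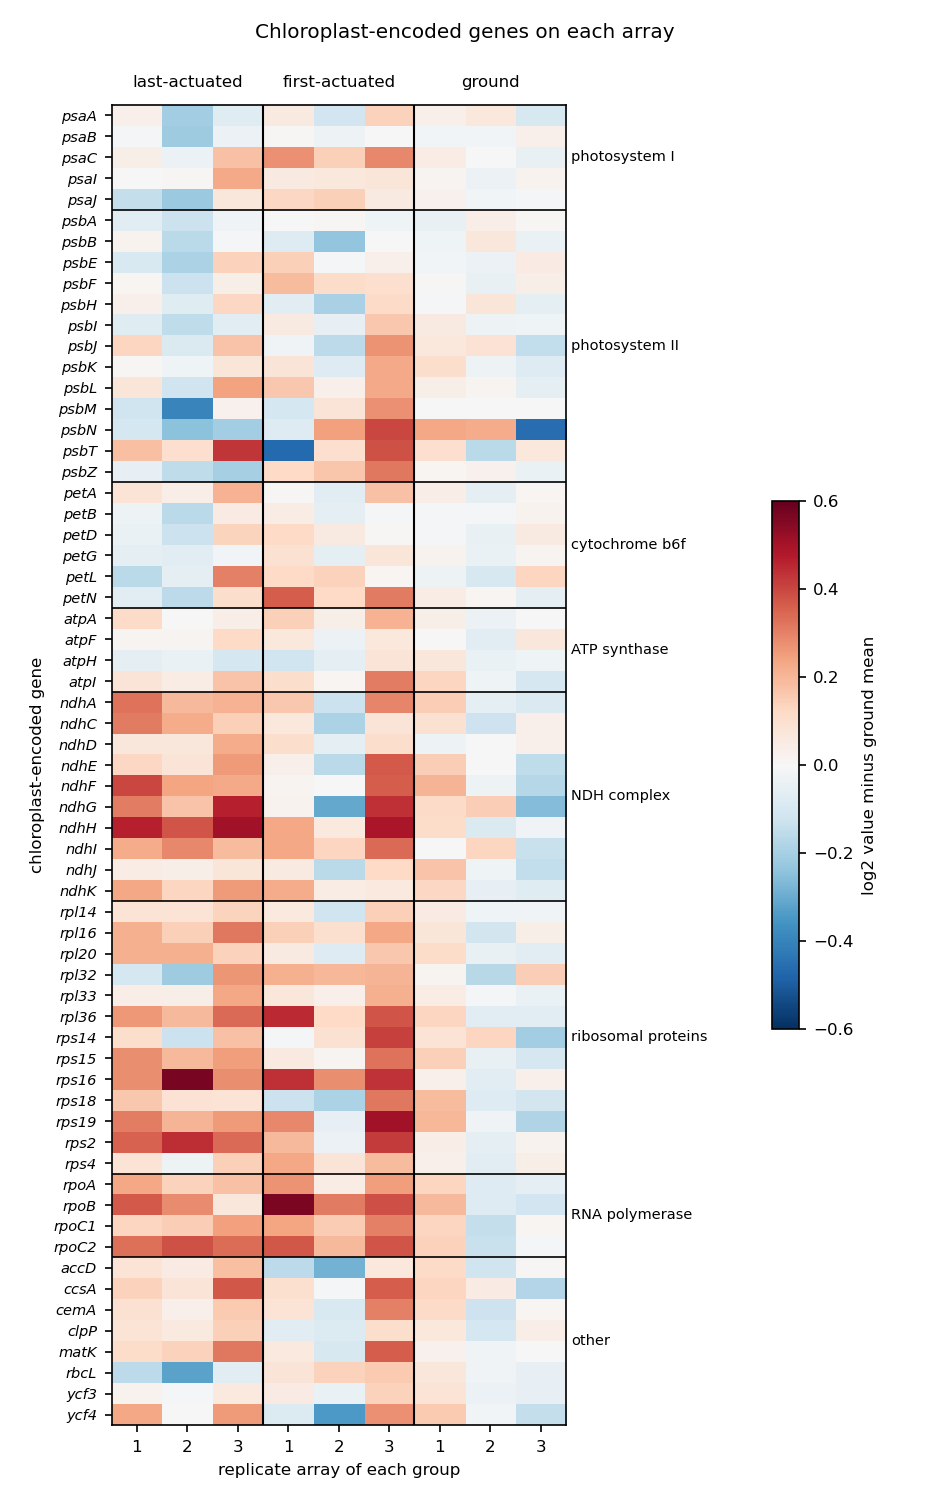
Each row is a chloroplast-encoded gene, grouped by function class, and each column an array; colour is the log2 value minus the mean of that gene's 3 ground arrays. Red for NDH, ribosomal protein and RNA polymerase genes fills much of the last-actuated columns, and first-actuated replicate 3 is redder than first-actuated replicate 2 in most rows.

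As a set, the chloroplast-encoded genes differed little between the groups. Their mean log2 value was 10.48, 10.41 and 10.54 on the 3 last-actuated arrays, 10.48, 10.38 and 10.60 on the first-actuated arrays, and 10.45, 10.35 and 10.34 on the ground arrays. The groups overlapped in this mean, which was highest on first-actuated replicate 3 and lowest on ground replicate 3. It averaged 10.47 ± 0.07 in last-actuated roots, 10.48 ± 0.11 in first-actuated roots and 10.38 ± 0.06 in ground roots (SD, n = 3 each). In bulk tissue, fewer plastid-rich cells and less plastid RNA per cell cannot be told apart.

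No member passed an adjusted p of 0.05 by limma in any comparison, nor by the moderated F test for any difference among the groups. By comparison, 1.81% of all tested probe sets passed between last-actuated and ground roots, 4.89% between first-actuated and ground roots, 6.73% between the in-flight groups and 7.65% by the F test. At an unadjusted p under 0.05, the F test gave 9 of 63 members (14.3%) against 21.3% of all tested. The median standard error of changes was 0.10 over members and 0.11 over the 2292 probe sets at least as bright as the dimmest member. For 50 members the 95% interval of the last-actuated change from ground lay wholly within 0.5 of 0 on the log2 scale, which held for 79.4% of members and 71.5% of all tested probe sets. For the first-actuated change from ground it did so for 56 members (88.9%, against 66.8% of all tested), and between the in-flight groups for 54 (85.7%, against 66.5%). Interval width enters these shares. The median standard error over all tested probe sets was 0.12, above that of members, and the shares were not taken over the 2292 of like brightness. The widest bounds over the 63 genes were -0.60 and 0.72 for last-actuated against ground and -0.42 and 0.69 for first-actuated against ground.

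**Figure D2:**
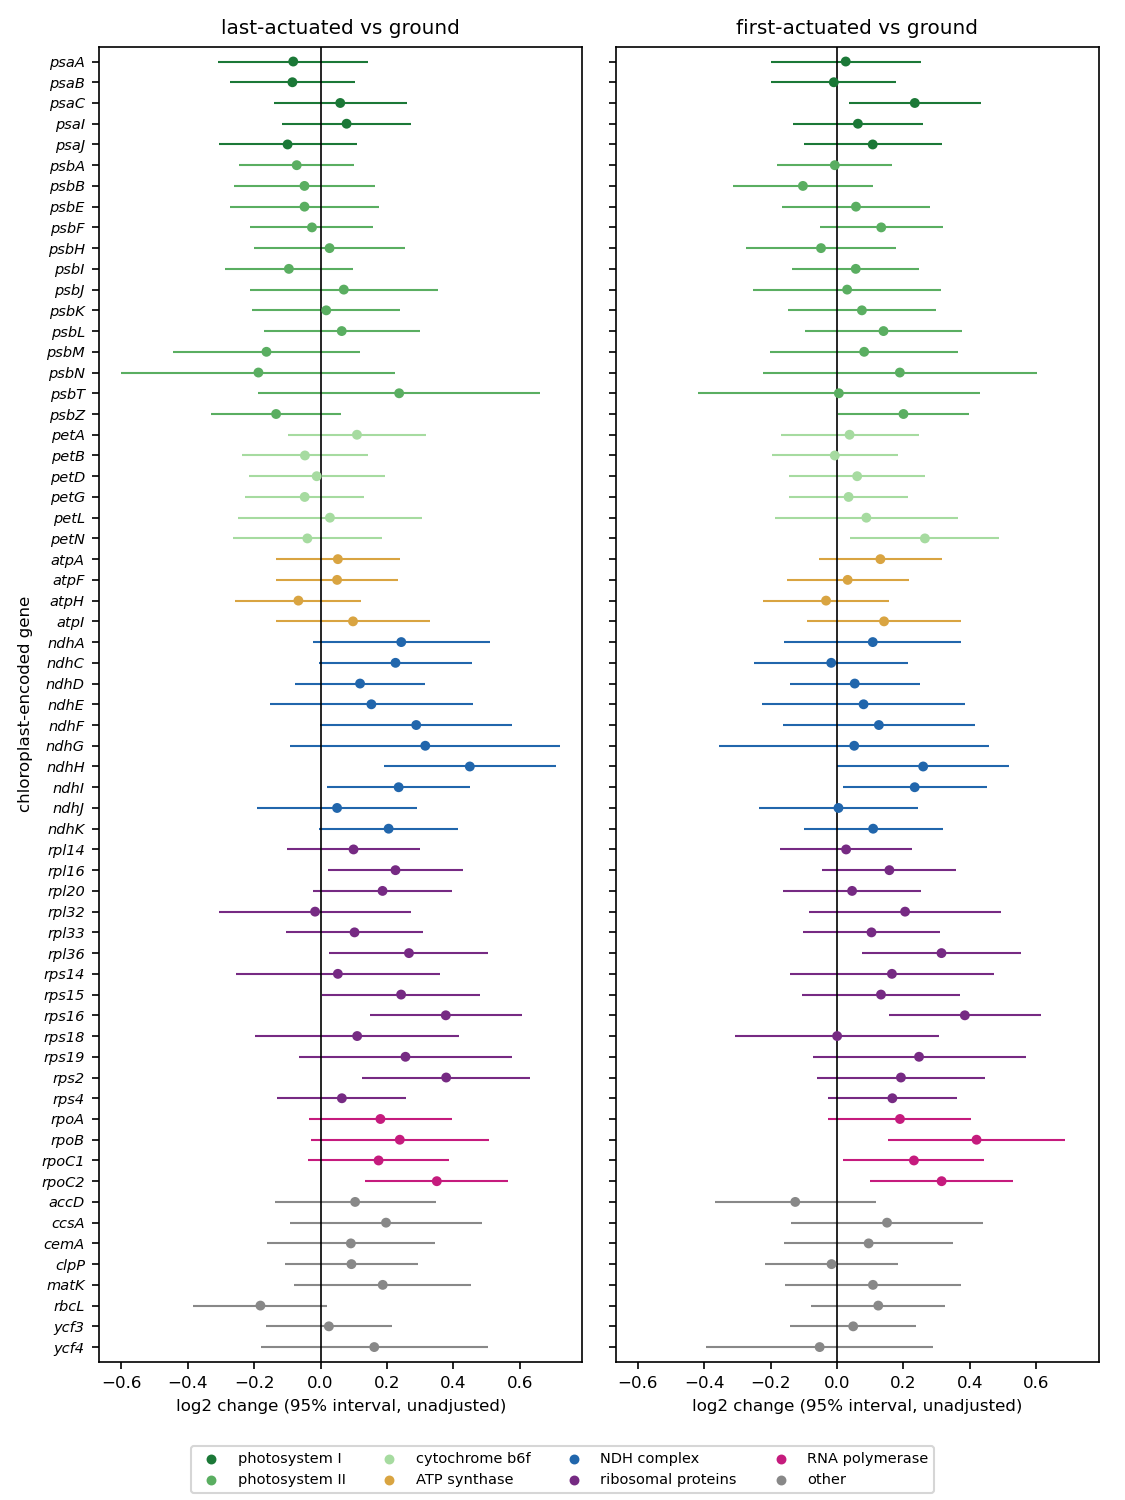
Points are the log2 changes of the 63 chloroplast-encoded genes against ground (left, last-actuated; right, first-actuated) and lines their 95% intervals, not adjusted for the number of genes; colours are function classes. Most intervals cross 0, with 8 wholly above it in last-actuated and 10 in first-actuated roots.

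The direction of the small differences was uneven. In last-actuated roots 45 of 63 members (71.4%) had a mean above ground, against 50.7% of all tested, and the median log2 change was 0.09, against 0.0026 over all tested. In first-actuated roots 53 members (84.1%) were above ground, against 51.3% of all tested, with a median of 0.10 against 0.0055. The 2 comparisons share the ground arrays. Changes over the 63 members ran from -0.19 for psbN to 0.45 for ndhH in last-actuated roots and from -0.13 for accD to 0.42 for rpoB in first-actuated roots. Among probe sets at least as bright as the dimmest member, 2292 in all, the medians were -0.0025 for last-actuated and -0.08 for first-actuated roots against ground. Between the in-flight groups 30 members (47.6%) had a higher mean in last-actuated roots, against 49.7% of all tested, and the differences ran from -0.38 for psbN to 0.26 for ndhG. The median difference was -0.0041 over members and 0.066 over those 2292 probe sets.

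Members also moved together from array to array within a group. After group means were removed, the median correlation over the 1953 pairs of members was 0.52 across the 9 arrays, against 0.00062 over all pairs of tested probe sets. These values describe shared arrays and carry no test. First-actuated replicate 3 lay 0.12 above its group mean over the members and first-actuated replicate 2 lay 0.11 below it, the widest gap within a group. Without first-actuated replicate 3 the first-actuated median change from ground was 0.04, and without first-actuated replicate 2 it was 0.14. Leaving out last-actuated replicate 3 gave 0.06 for the last-actuated median.

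The genes of the plastid RNA polymerase had the highest class median against ground in first-actuated roots. The class encodes the core of the bacterial-type enzyme, rpoA the alpha subunit, rpoB the beta subunit and rpoC1 and rpoC2 the parts of the split beta prime subunit. Its 4 members had means above ground in each in-flight group, by a median of 0.21 in last-actuated and 0.27 in first-actuated roots, and none passed the test.

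For rpoC2 the values were 8.89, 8.95 and 8.90 on the last-actuated arrays, 8.93, 8.76 and 8.94 on the first-actuated arrays and 8.70, 8.43 and 8.55 on the ground arrays. All 6 in-flight arrays were above all ground arrays. The change was 0.35 ± 0.10 (SE) in last-actuated roots, a 1.27-fold higher level (limma adjusted p = 0.126), and 0.31 ± 0.10 in first-actuated roots (1.24-fold, adjusted p = 0.0997). The rpoB values were 8.29, 8.21 and 7.99 in last-actuated, 8.49, 8.24 and 8.31 in first-actuated and 8.12, 7.85 and 7.81 in ground roots. First-actuated and ground arrays did not overlap, while last-actuated replicate 3 fell below ground replicate 1. The rpoB change was 0.24 ± 0.12 in last-actuated and 0.42 ± 0.12 in first-actuated roots (1.34-fold, adjusted p = 0.080).

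For rpoC1, read from the same unit, the change from ground was 0.17 ± 0.10 in last-actuated and 0.23 ± 0.10 in first-actuated roots. For rpoA, which lies in a ribosomal protein unit instead, it was 0.18 ± 0.10 and 0.19 ± 0.10 for last-actuated and first-actuated roots. The genes rpoB, rpoC1 and rpoC2 are usually given as transcribed mainly by the nuclear-encoded polymerase. So is accD, for a subunit of the acetyl-CoA carboxylase of fatty acid synthesis, whose change was 0.10 ± 0.11 in last-actuated and -0.13 ± 0.11 in first-actuated roots.

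Ribosomal protein genes had 12 of 13 members above ground in last-actuated roots and 13 of 13 in first-actuated roots, with medians of 0.19 and 0.17, and none was called. Without first-actuated replicate 3 the first-actuated median was 0.080, with 10 of 13 above ground. The rps and rpl genes encode proteins of the small and the large subunit of the plastid ribosome. The rps16 values were 7.19, 7.48 and 7.19 in last-actuated roots, 7.35, 7.18 and 7.34 in first-actuated roots and 6.94, 6.84 and 6.94 in ground roots. All in-flight arrays were above all ground arrays, and the in-flight groups overlapped. The change was 0.38 ± 0.10 in last-actuated roots (1.30-fold, limma adjusted p = 0.121) and 0.38 ± 0.10 in first-actuated roots (1.31-fold, adjusted p = 0.063). The first-actuated change was called under 3 of 19 alternative settings, with adjusted p between 0.042 and 0.177 over the 19.

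For rps2 the values were 8.72, 8.81 and 8.71 in last-actuated, 8.56, 8.33 and 8.79 in first-actuated and 8.41, 8.31 and 8.39 in ground roots. Last-actuated arrays were all above ground, whereas first-actuated arrays ranged from 8.33 to 8.79 and overlapped both other groups. The last-actuated change was 0.38 ± 0.11 (1.30-fold, adjusted p = 0.160) and the first-actuated change 0.19 ± 0.11. The rpl36 values were 9.44, 9.37 and 9.51 in last-actuated, 9.62, 9.29 and 9.55 in first-actuated and 9.30, 9.11 and 9.11 in ground roots. Its changes were 0.27 ± 0.11 for last-actuated and 0.31 ± 0.11 for first-actuated roots, with first-actuated replicate 2 just under ground replicate 1. For rpl16 the changes were 0.23 ± 0.09 and 0.16 ± 0.09 in last-actuated and first-actuated roots, and for rpl14 they were 0.10 ± 0.09 and 0.03 ± 0.09.

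NDH genes encode subunits of the thylakoid NDH complex, which passes electrons from ferredoxin to plastoquinone in cyclic electron flow around photosystem I. All 10 measured members had a higher mean in last-actuated than in ground roots, with a median of 0.23, and 8 of the 10 did not overlap ground. Over all tested probe sets, 7.68% were higher without overlap in that comparison. So were 8 of 13 ribosomal protein genes and 2 of 4 RNA polymerase genes. In first-actuated roots 9 of 10 NDH genes were above ground, with a median of 0.09 and overlap with ground in every member. That first-actuated median rested on single arrays: it was 0.011 with 6 of 10 above ground without first-actuated replicate 3, 0.19 with 10 of 10 without first-actuated replicate 2, 0.16 with 10 of 10 without ground replicate 1 and 0.052 with 7 of 10 without ground replicate 3. None of the 10 was called by limma in either comparison, while ndhH and ndhI were higher at an unadjusted p under 0.05 in each, as were 6.02% of all tested for last-actuated and 8.40% for first-actuated roots.

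The ndhH values were 8.92, 8.83 and 8.96 in last-actuated, 8.69, 8.51 and 8.95 in first-actuated and 8.56, 8.37 and 8.43 in ground roots. Last-actuated arrays lay clear of ground, and first-actuated replicate 3 lay within the last-actuated range. The ndhH change from ground was 0.45 ± 0.12 in last-actuated roots (1.37-fold, adjusted p = 0.102), the largest of the 63 in that comparison, and 0.26 ± 0.12 in first-actuated roots. For ndhI the changes were 0.24 ± 0.10 in last-actuated and 0.23 ± 0.10 in first-actuated roots. The ndhC gene, in a separate unit, had a change of 0.23 ± 0.10 in last-actuated roots and -0.02 ± 0.10 in first-actuated roots. For ndhE they were 0.15 ± 0.14 and 0.08 ± 0.14 for last-actuated and first-actuated roots.

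**Figure D3:**
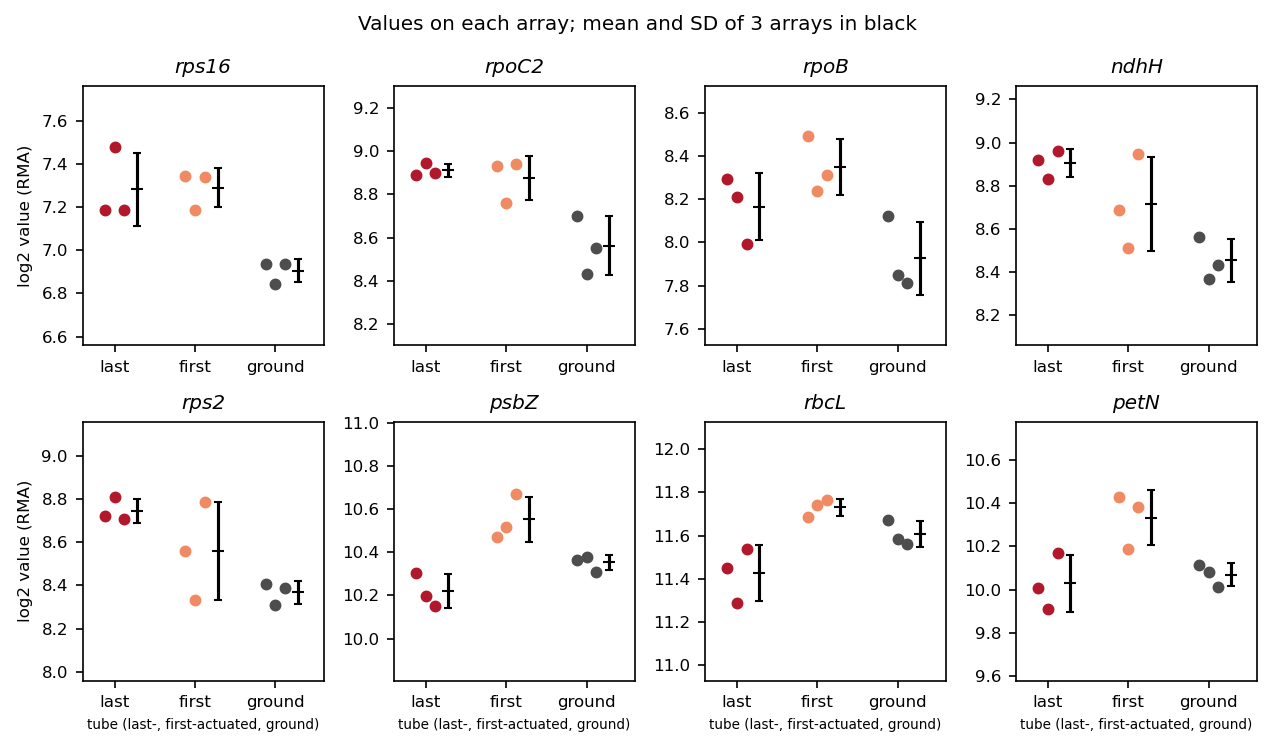
Log2 values of 8 chloroplast-encoded genes on each array (coloured points; last-actuated, first-actuated and ground from left to right), with the mean and SD of 3 arrays in black; each panel spans the same range of 1.2 log2 units. In rps16 and rpoC2 the in-flight arrays lie above ground, and in psbZ, rbcL and petN the first-actuated arrays lie above both other groups.

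Photosystem, cytochrome b6f and ATP synthase genes sat closer to ground. The class medians in last-actuated roots were -0.08 for 5 photosystem I genes, -0.05 for 13 photosystem II genes, -0.03 for 6 cytochrome b6f genes and 0.05 for 4 ATP synthase genes. The cytochrome b6f median turned to 0.016 when arrays were centred on their medians, and without last-actuated replicate 2 it was 0.033, the photosystem II median 0.023 and the photosystem I median -0.020. Without last-actuated replicate 3 the cytochrome b6f median was -0.091, and without last-actuated replicate 1, ground replicate 1 or ground replicate 3 it lay between -0.016 and -0.011. Photosystem I was at -0.051 and ATP synthase at 0.026 without ground replicate 2, and photosystem II at -0.024 without ground replicate 3. In first-actuated roots the medians were 0.06, 0.06, 0.05 and 0.08, in the same order of classes. Without first-actuated replicate 3 photosystem II was at 0.0034, with 7 of 13 above ground, and ATP synthase at 0.037. Photosystem II was at 0.11 without first-actuated replicate 2 and 0.037 without ground replicate 3, and cytochrome b6f at 0.026 without ground replicate 2. The psbA gene, for the D1 reaction centre protein of photosystem II, averaged 12.95 ± 0.05 in last-actuated, 13.02 ± 0.02 in first-actuated and 13.02 ± 0.04 in ground roots (SD, n = 3 each). Its 95% interval ran from -0.24 to 0.10 for last-actuated and from -0.18 to 0.17 for first-actuated roots against ground. At such signals a probe set may respond less than in proportion to RNA, and signal limits were not assessed.

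Of the other photosystem genes, psaA, a reaction centre protein of photosystem I, had estimated differences from ground of -0.08 ± 0.10 in last-actuated and 0.03 ± 0.10 in first-actuated roots. For the small subunit gene psaI the estimates were 0.08 ± 0.09 and 0.06 ± 0.09. The psaC gene, for the iron-sulfur subunit of photosystem I, had 9.78, 9.71 and 9.92 in last-actuated, 10.02, 9.89 and 10.04 in first-actuated and 9.79, 9.75 and 9.70 in ground roots. First-actuated arrays of psaC did not overlap ground (0.23 ± 0.09, adjusted p = 0.194), and the last-actuated change was 0.06 ± 0.09. The ATP synthase genes atpA, atpF, atpH and atpI, which encode the alpha subunit of the catalytic head and subunits of the membrane part, had estimates of 0.05 ± 0.08, 0.05 ± 0.08, -0.07 ± 0.09 and 0.10 ± 0.10 in last-actuated roots. In first-actuated roots the estimates were 0.13 ± 0.08, 0.03 ± 0.08, -0.03 ± 0.09 and 0.14 ± 0.10. For petG, a small subunit of the cytochrome b6f complex, they were -0.05 ± 0.08 and 0.03 ± 0.08 in last-actuated and first-actuated roots, and for petA, the cytochrome f gene, 0.11 ± 0.09 and 0.04 ± 0.09.

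In the first-actuated comparison with ground, 10 members were higher at an unadjusted p under 0.05 and 0 lower, against 8.40% and 9.97% of all tested. The 10 were rps16, rpoB, rpoC2, rpl36, petN, psaC, rpoC1, ndhI, psbZ and ndhH. Without ground replicate 2 the count was 6, and it was 4 without ground replicate 3, without first-actuated replicate 1 or without first-actuated replicate 3. In the last-actuated comparison 8 members were higher and 0 lower, against 6.02% and 6.98%, namely ndhH, rps16, rpoC2, rps2, rpl16, rpl36, ndhI and rps15. That count was 16 without ground replicate 1, 5 without ground replicate 2 or ground replicate 3, and 4 without last-actuated replicate 1. In terms of overlap, 19 members were higher and 4 lower than ground in last-actuated roots without overlap, against 7.68% and 8.91% of all tested. In first-actuated roots 15 were higher and 0 lower, against 9.55% and 10.9%.

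Setting last-actuated against first-actuated roots compares later with earlier fixation in the same flight. The photosystem, cytochrome b6f and ATP synthase classes had lower medians in last-actuated roots and the NDH class a higher one, all by small amounts and with no call. Class medians were -0.11 for photosystem I, -0.08 for photosystem II, -0.07 for cytochrome b6f and -0.04 for ATP synthase. The NDH median was 0.12, with 10 of 10 members above 0, and the ribosomal protein and RNA polymerase medians were 0.01 and -0.03. Over the 2292 probe sets at least as bright as the dimmest member, the median in this comparison was 0.066. The sign turned for RNA polymerase when arrays were centred on their medians (0.0022), for ribosomal proteins when they were quantile normalised again (-0.012), and for RNA polymerase (0.00059) and ATP synthase (0.028) without first-actuated replicate 3. Without first-actuated replicate 2 the ribosomal protein median was -0.038.

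These class medians between the in-flight groups moved with single arrays. The NDH median was 0.040, with 7 of 10 above 0, without first-actuated replicate 2, and 0.22 without first-actuated replicate 3. Without last-actuated replicate 2 photosystem I was at -0.046, photosystem II at -0.036, cytochrome b6f at -0.016 and RNA polymerase at -0.015. Without last-actuated replicate 3 photosystem II was at -0.16, cytochrome b6f at -0.12 and RNA polymerase at -0.050. Photosystem I was at -0.16 without last-actuated replicate 1 and at -0.072 without first-actuated replicate 3. Without first-actuated replicate 2 photosystem I was at -0.18, photosystem II at -0.13, ATP synthase at -0.078 and RNA polymerase at -0.089. Without first-actuated replicate 1 cytochrome b6f was at -0.044, ATP synthase at -0.067 and RNA polymerase at -0.011. The ribosomal protein median, near 0 with all arrays, was 0.10 without first-actuated replicate 3 and between 0.021 and 0.041 without first-actuated replicate 1 or any 1 last-actuated array. The photosystem I, photosystem II and cytochrome b6f medians stayed below 0, and the NDH median above 0, whichever array was left out.

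At an unadjusted p under 0.05, 1 member was higher and 3 were lower, against 10.1% and 9.54% of all tested. The number lower was 5 without first-actuated replicate 1 and 7 without last-actuated replicate 3, and the number higher was 8 without first-actuated replicate 3 and 0 without ground replicate 3, first-actuated replicate 2, last-actuated replicate 1 or last-actuated replicate 2.

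The psbZ gene, for a small photosystem II subunit, had 10.31, 10.20 and 10.15 in last-actuated, 10.47, 10.52 and 10.67 in first-actuated and 10.37, 10.38 and 10.31 in ground roots. First-actuated arrays were above both other groups, and last-actuated arrays were below ground, narrowly so for last-actuated replicate 1 against ground replicate 3. The difference between the in-flight groups was -0.33 ± 0.09 (0.793 of the first-actuated level, limma adjusted p = 0.051), with an interval of -0.53 to -0.14. It was called under 3 of 19 alternatives, over which the adjusted p ran from 0.020 to 0.153.

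The rbcL gene encodes the large subunit of Rubisco, the enzyme that fixes carbon dioxide. Its values were 11.45, 11.29 and 11.54 in last-actuated, 11.69, 11.74 and 11.76 in first-actuated and 11.67, 11.59 and 11.56 in ground roots. First-actuated arrays were above both other groups, and last-actuated arrays were below ground. The last-actuated value differed from the first-actuated by -0.31 ± 0.09 (0.809-fold, adjusted p = 0.081), and 1 of 19 alternatives called it, with adjusted p between 0.027 and 0.222. For petN, a small cytochrome b6f subunit, the values were 10.01, 9.91 and 10.17 in last-actuated, 10.43, 10.19 and 10.38 in first-actuated and 10.11, 10.08 and 10.01 in ground roots. The in-flight groups did not overlap in petN (-0.30 ± 0.10, adjusted p = 0.115), and last-actuated and ground roots did.

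In the opposite direction, ndhC was higher in last-actuated roots by 0.24 ± 0.10 without overlap (adjusted p = 0.230), and accD by 0.23 ± 0.11 with overlap. For psaJ, a small photosystem I subunit, the difference was -0.21 ± 0.09, and for psbF, part of cytochrome b559, it was -0.16 ± 0.08. The psbN gene, needed for photosystem II assembly and carried on the strand opposite to its neighbours psbT and psbH, differed by -0.38 ± 0.19. Its ground arrays, at 9.96, 9.95 and 9.27, spread more than the difference itself. In all, 6 members were lower without overlap (psbI, petN, psbZ, rbcL, psbF and psbN) and 1 was higher, against 10.5% and 11.3% of all tested.

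**Figure D4:**
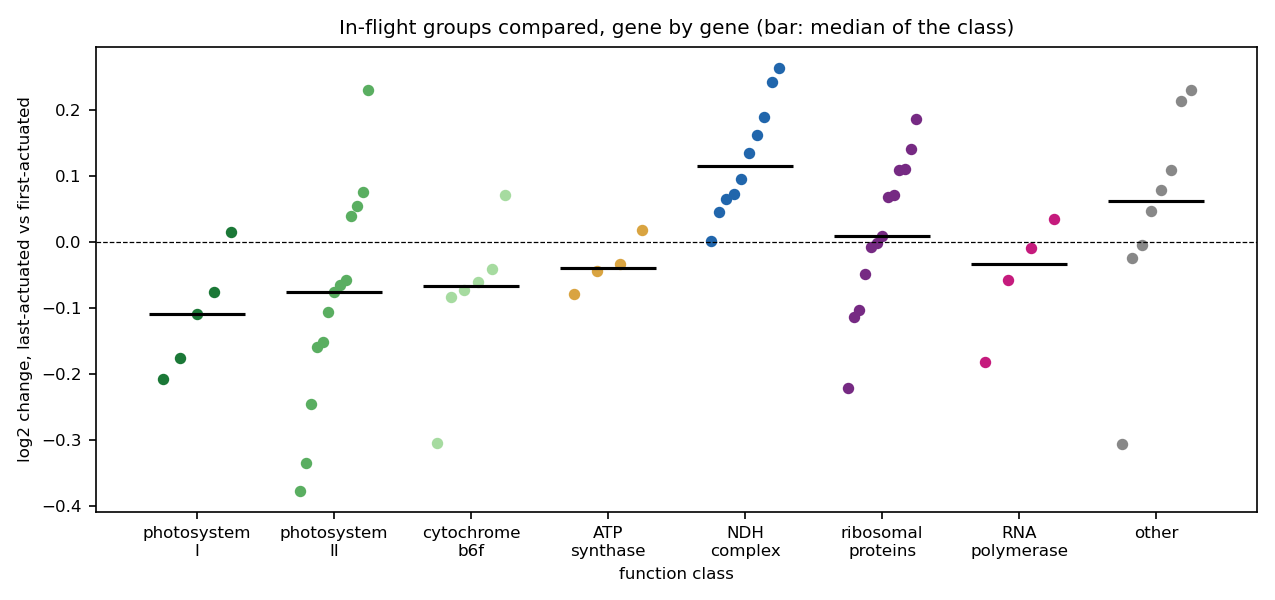
Each point is a chloroplast-encoded gene, its vertical position the log2 change of last-actuated against first-actuated roots, sorted by function class with the class median as a bar. All 10 NDH points lie at or above 0, while 4 of 5 photosystem I and 9 of 13 photosystem II points lie below it.

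Of 41 listed nuclear genes of photosynthesis and chlorophyll synthesis, used as markers of green tissue, 6 were found by name. The 2 genes PRK and PORB were below the array medians. The 6 did not move one way. Between the in-flight groups 1 was called higher and 1 lower in last-actuated roots, and the other 4 were not called. Their summed linear signal ran from 470 to 492 on last-actuated arrays, from 555 to 726 on first-actuated arrays and from 466 to 511 on ground arrays. Without LHB1B2, left out after its values were seen, the sum ran from 399 to 440 on last-actuated, from 377 to 413 on first-actuated and from 348 to 390 on ground arrays, so the higher first-actuated sum rested on that gene. Without it the last-actuated sums all lay above the ground sums, and the first-actuated sums overlapped both. LHB1B2, a light-harvesting protein of photosystem II, changed by -1.96 ± 0.28 in last-actuated against first-actuated roots (limma adjusted p = 0.0022). PSAN, a lumenal photosystem I subunit, went the other way, higher by 0.76 ± 0.12 (adjusted p = 0.0036). PSAN was also lower in first-actuated than in ground roots (-0.58 ± 0.12, adjusted p = 0.0191). RCA, the brightest of the 6, was higher on every in-flight array than on any ground array. Against ground it changed by 0.26 ± 0.09 in last-actuated and 0.24 ± 0.09 in first-actuated roots (limma adjusted p = 0.224 and 0.175). In the same order, changes were -0.39 ± 0.16 and -0.10 ± 0.16 for ATPC1 and -0.81 ± 0.21 and -0.75 ± 0.21 for PRK. For PORB they were 0.01 ± 0.14 and 0.20 ± 0.14. LHB1B2 stood highest on first-actuated replicate 2, at 8.45, the first-actuated array on which the chloroplast-encoded genes were lowest. The part of green tissue in the plastid differences was not tested. Of 23 listed nuclear genes of plastid transcription, only AT5G15700, a phage-type organellar polymerase, was found by name. Its change from ground was 0.00 ± 0.09 in last-actuated and 0.12 ± 0.09 in first-actuated roots. The mean log2 value of AT5G15700, 3.63, was close to the array medians, so a change in it may go unseen.

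The brightness of a probe set went with its change. Across the 63 members, Spearman's rho between the mean log2 value and the change from ground was -0.58 for last-actuated and -0.42 for first-actuated roots, as a description over genes that share arrays. The 21 dimmest members had a median of 0.24 in last-actuated roots and the 21 brightest -0.01. For first-actuated roots these medians were 0.15 and 0.06. Over the 2292 probe sets at least as bright as the dimmest member the rho was 0.11 and 0.12 for last-actuated and first-actuated roots. Function class and brightness overlap, because NDH and most RNA polymerase probe sets were among the dimmer members, and their parts were not tested separately.

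**Figure D5:**
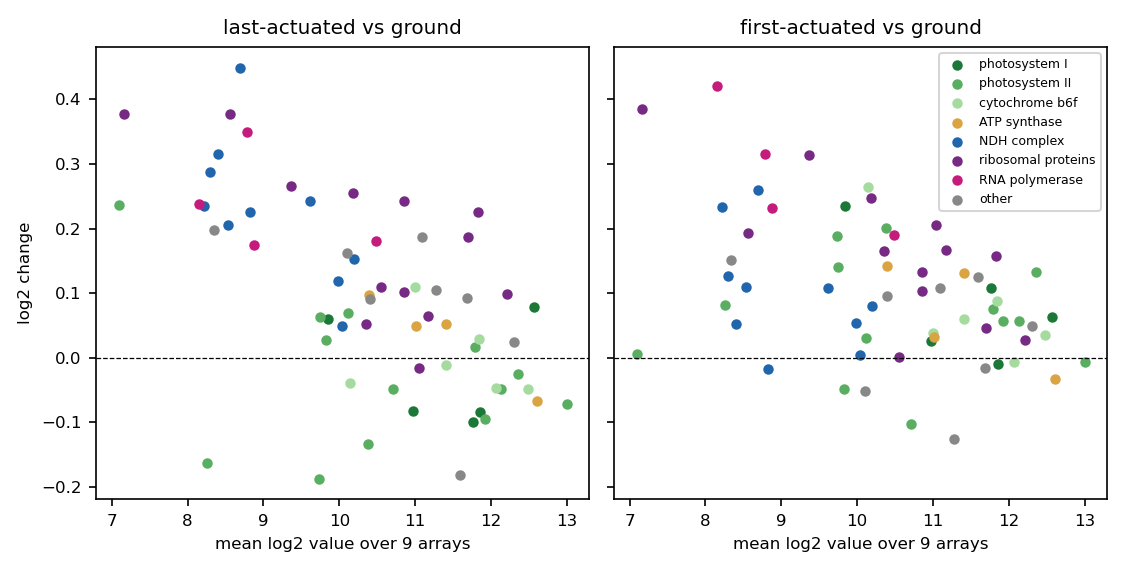
The horizontal axis is each chloroplast-encoded gene's mean log2 value over 9 arrays and the vertical axis its log2 change against ground (left, last-actuated; right, first-actuated), coloured by function class. In last-actuated roots the points slope down from left to right, with the photosystem II genes psbM and psbN below 0 among the dimmer probe sets.

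Genes that share a transcription unit were also set side by side, with unit membership taken from textbook knowledge. Deviations from the group mean had a median correlation of 0.62 over 95 pairs of the same unit and 0.52 over 1858 other pairs. In the unit of rps15, ndhH, ndhA, ndhI, ndhG, ndhE, psaC and ndhD, the changes ran from 0.06 to 0.45 in last-actuated roots and from 0.05 to 0.26 in first-actuated roots, with all 8 genes above 0 in each comparison. In the psbB unit (psbB, psbT, psbH, petB and petD) they ran from -0.05 to 0.24 and from -0.10 to 0.06 for last-actuated and first-actuated roots. Members of the atpI unit spread from -0.07 for atpH to 0.38 for rps2 in last-actuated roots.

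Among the remaining genes, ccsA, needed for cytochrome c assembly, had changes of 0.20 ± 0.13 in last-actuated and 0.15 ± 0.13 in first-actuated roots. For ycf3, a photosystem I assembly factor, they were 0.02 ± 0.09 and 0.05 ± 0.09. The profile over the 9 arrays most like the mean of the members was that of atpI itself (Pearson's r = 0.964), followed by the nuclear loci AT5G18850 (r = 0.950) and AT5G48420 (r = 0.943). Of the 50 named probe sets with the highest such r, 12 were members, whose own values enter the mean.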

How the data were processed

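Total RNA from 9 root samples was hybridised to Affymetrix Arabidopsis Gene arrays. The deposited values are on the log2 scale, and the submitters' processing notes name RMA, oligo, limma, R 4.0.0 and TAIR10 without their order; the values were taken to be RMA output from their range. RMA as usually run equalises array distributions, so a shift shared by most transcripts would go unseen. Gene names came from the platform annotation, updated by gene identifier through a RefSeq table of TAIR10.1, whose coordinates are not printed. Plastid genes were those that this table places on the plastid sequence. A model with the 3 groups and no batch term was fitted to all 17481 named probe sets on 9 arrays (lmFit and eBayes of limma 3.58.1, R 4.3.3). P-values were Benjamini-Hochberg adjusted over all of them within a comparison, with 0.05 as threshold. The fit was checked on simulated data with independent noise for each probe set, which lack the correlation seen between members. The number of arrays limits the precision.

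The members and lists were chosen with earlier results of these data known. Transcription units and mitochondria-encoded genes were added after the values had been seen. Named genes were the brightest member and the 3 of smallest F p of each class, classes of up to 4 members in full, the 5 of smallest p per comparison, called or otherwise the 2 least-p members of other lists, and the 3 profiles most like the members' mean. RCA, ATPC1, PRK and PORB were named in addition. A rule for nuclear plastid ribosomal protein genes matched 0 probe sets. Alternatives covered the probe sets tested, arrays fitted, variance prior, scaling, array weights, replicate number as a block and each array left out. Deviations from the group means correlated weakly between arrays with the same replicate number (r from -0.12 to 0.06). Over the members alone, r ran from -0.53 for replicate 3 of ground and first-actuated roots to 0.36 for replicate 1 of ground and last-actuated roots. With 3 arrays a group, these values cannot decide whether the numbers pair samples. Scan dates and detection calls were not used here.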

Additional observations from a re-analysis of the deposited data

How the results depend on the processing

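The 3 median changes moved by less than the spread between arrays, a pooled SD of 0.0998, under every alternative run. That spread exceeded each median change itself (0.095, 0.091 and -0.0041), so the measure could not show the loss of a change. Leaving out an array gave 0.036 to 0.14 for first-actuated against ground, 0.057 to 0.12 for last-actuated against ground and -0.055 to 0.034 between the in-flight groups. No member was called between last-actuated and ground roots under any of the 19 alternatives. Elsewhere the calls were few and rested on rps16, psbZ and rbcL. With dim probe sets left out, 1 member was called in first-actuated roots (rps16), 1 between the in-flight groups (psbZ) and 1 by the F test (rps16), with fewer probe sets in the adjustment. An intensity trend with a robust prior called 2 between the in-flight groups (psbZ and rbcL) and 1 by the F test (psbZ). Centring arrays called 1 by the F test (rps16), repeated quantile normalisation 1 in first-actuated roots (rps16) and array weights 1 between the in-flight groups (psbZ). Leaving out an array gave 0 to 1 for first-actuated roots, where rps16 was called without last-actuated replicate 2. The cause of these calls was not tested beyond the smaller set of probe sets. Over all tested probe sets, calls between the in-flight groups were 1794 with unnamed probe sets added, and first-actuated calls were 512 with 6 arrays fitted. Leaving out an array gave 549 to 807 calls for first-actuated, 179 to 333 for last-actuated and 724 to 1119 between the in-flight groups. With the replicate number as a block, members called stayed at 0 in each comparison, probe sets called were 723, 247 and 1035 and the medians were 0.095, 0.091 and -0.0041, for first-actuated and last-actuated against ground and for the in-flight groups. Counts of members at an unadjusted p were added after seeing the data, and the count lower in last-actuated than ground roots was 1 with the trend, and also when ground replicate 3 or last-actuated replicate 3 was left out.

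Of 96 pairs of a named member and a comparison, 24 changed sign under at least 1 alternative, all of size 0.19 or less and none called. For first-actuated against ground, leaving out an array gave -0.029 to 0.013 for psbA, -0.088 to 0.0099 for atpH, -0.030 to 0.096 for psaA, -0.079 to 0.069 for ndhC, -0.031 to 0.092 for petA, -0.039 to 0.32 for psbN, -0.030 to 0.10 for rpl14 and -0.064 to 0.20 for ndhE. For last-actuated against ground it gave -0.11 to 0.020 for petN, -0.057 to 0.024 for psbF and -7.205e-05 to 0.11 for psaC. Between the in-flight groups it gave -0.11 to 0.041 for rps16, -0.017 to 0.035 for atpF, -0.077 to 0.022 for atpH, -0.11 to 0.040 for atpI, -0.024 to 0.067 for rpoC2, -0.069 to 0.021 for ycf3, -0.059 to 0.054 for psaI and -0.081 to 0.031 for rpoA. There it also gave -0.15 to 0.017 for rpl36, -0.0013 to 0.13 for rpl14, -0.042 to 0.15 for ccsA, -0.047 to 0.22 for ndhE and -0.051 to 0.055 for ndhI. Centring gave 0.0015 for petN and 0.015 for psbF against ground in last-actuated roots, and 0.028 for rps16, 0.0016 for atpH, 0.012 for ycf3 and 0.026 for rpoA between the in-flight groups. Quantile normalisation gave 0.023 for psbA in first-actuated roots against ground, and -0.065 for psaI and -0.043 for ndhI between the in-flight groups. Array weights gave 0.0033 for rpoA and -0.0051 for ndhI there. With 3 arrays a group, changes of this size were not resolved.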

Other observations

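Genes of the mitochondrial genome, the other organelle genome of the root, were also measured, with 17 genes matched by symbol after the plastid values had been seen. Their mean log2 value was 10.92 ± 0.04 in last-actuated, 10.98 ± 0.08 in first-actuated and 10.81 ± 0.07 in ground roots (SD, n = 3 each). In last-actuated roots 16 of 17 were above ground, the median log2 change was 0.11, and none was called by limma, with 2 (11.8%) higher at an unadjusted p under 0.05, against 6.02% of all tested. In first-actuated roots 17 of 17 were above ground, with a median of 0.09, 2 were called, against 4.89% of all tested, and 7 (41.2%) were higher at an unadjusted p under 0.05, against 8.40% of all tested. The 2 called were ccb382, for a cytochrome c biogenesis protein (0.44 ± 0.11, limma adjusted p = 0.0452), and matR, a maturase that acts in intron splicing (0.44 ± 0.11, adjusted p = 0.0490). Both comparisons share the ground arrays. Near-identical copies of mitochondrial DNA lie in the nuclear genome, so the values of these genes are uncertain.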
